A study of Mus musculus with 4 samples.

Results

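The receptor chains for interleukin-2 (IL-2) and its related cytokines were examined in splenic regulatory T (Treg) cells with and without Setd2, the methyltransferase that places the H3K36me3 mark. The 10 genes were chosen by name from the 24087 genes of the expression table. They included the 3 chains of the IL-2 receptor (Il2ra, Il2rb and Il2rg). Il7r, Il4ra, Il21r, Il15ra and Il9r stand with Il2rg in receptors for other cytokines. Both chains of the IL-6 receptor (Il6ra and Il6st), which signal without Il2rg, were also included. RNA-seq was performed on CD3+CD4+YFP+ cells sorted at steady state from spleens of C57BL/6 mice. KO mice were Foxp3Cre-YFPSetd2f/f, and their CTRL littermates were Foxp3Cre-YFPSetd2f/+. Both groups therefore carried the Cre-YFP fusion driven from Foxp3, and the CTRL cells carried 1 floxed Setd2 allele themselves, so no group here had 2 intact alleles. Each group had 2 libraries, each from about 1000000 cells pooled from 2 mice. The labels give no age or sex.

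Treg cells make little IL-2 and depend on IL-2 from other cells. IL-2 binds with intermediate affinity to the β chain (Il2rb) together with the common gamma chain (Il2rg), and the α chain (Il2ra, CD25), which Treg cells carry at high levels, raises the affinity. The common gamma chain is shared by the receptors for IL-2, IL-4, IL-7, IL-9, IL-15 and IL-21. It binds the kinase JAK3, and the chains that signal with it bind JAK1. The kinases activate STAT factors, mainly STAT5 for IL-2, IL-7 and IL-15, STAT6 for IL-4 and STAT3 for IL-21. gp130, the product of Il6st, binds JAK1 and activates mainly STAT3.

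The reads behind the libraries, recovered from the steps between the deposited values, numbered at least 29988267 to 32686764 per library, and relative depth differed by at most 1.081-fold. CTRL 1 stood apart in its low values, with 19100 genes above 0 against 15913 to 16410 in the other libraries. Summed FPKM (fragments scaled by gene length and library total) of 7 Treg markers was 1492 and 1584 in CTRL and 1607 and 1528 in KO, and Foxp3 was at 112 to 140 FPKM in the 4 libraries. Of the CD8 T cell markers, Cd8a was at most at 0.326 FPKM and Cd8b1 was at 8.33 to 11.2 FPKM. Summed FPKM of 5 myeloid markers was 191 and 121 in CTRL 1 and 2 and 228 and 97.8 in KO 1 and 2, of which Lyz2 held 60 to 153, so that the number 1 library was the higher in each genotype. Setd2 itself measured 23.4 and 25.3 FPKM in the CTRL libraries against 21.3 and 19.5 in the KO libraries over the whole gene, without overlap but not past the threshold (limma, log2 fold change -0.24, SE 0.0763, adjusted p 0.097).

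KO and CTRL were compared to see which receptor chains differ when Treg cells lose Setd2. All 10 genes passed the filter on low values (2 or more libraries at 1 FPKM or above). Il7r, the α chain of the IL-7 receptor, and Il6st, the signal-transducing chain of the IL-6 family, were lower in KO at an adjusted p under 0.05 (limma on log2(FPKM + 1), Benjamini-Hochberg over 11399 genes). The decreases were small, 21.7% for Il7r and 27.5% for Il6st. None of the other 8 chains passed the threshold, including all 3 chains of the IL-2 receptor. The counts were 0 higher and 2 lower of 10. Among all genes tested, 9.75% passed in either direction, 5.1% higher and 4.65% lower in KO, so that 1111 genes were called. At an unadjusted p under 0.05, 4 chains were lower (Il2ra, Il7r, Il9r and Il6st) and 1 was higher (Il21r). Of all genes tested, 34.7% had such a p, 1855 higher and 2099 lower. On the recovered reads limma-voom also called 0 higher and 2 lower, while it called 16.6% of all genes. Since whole populations were sequenced, fewer cells carrying a transcript and less of it per cell cannot be told apart.

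**Figure D1:**
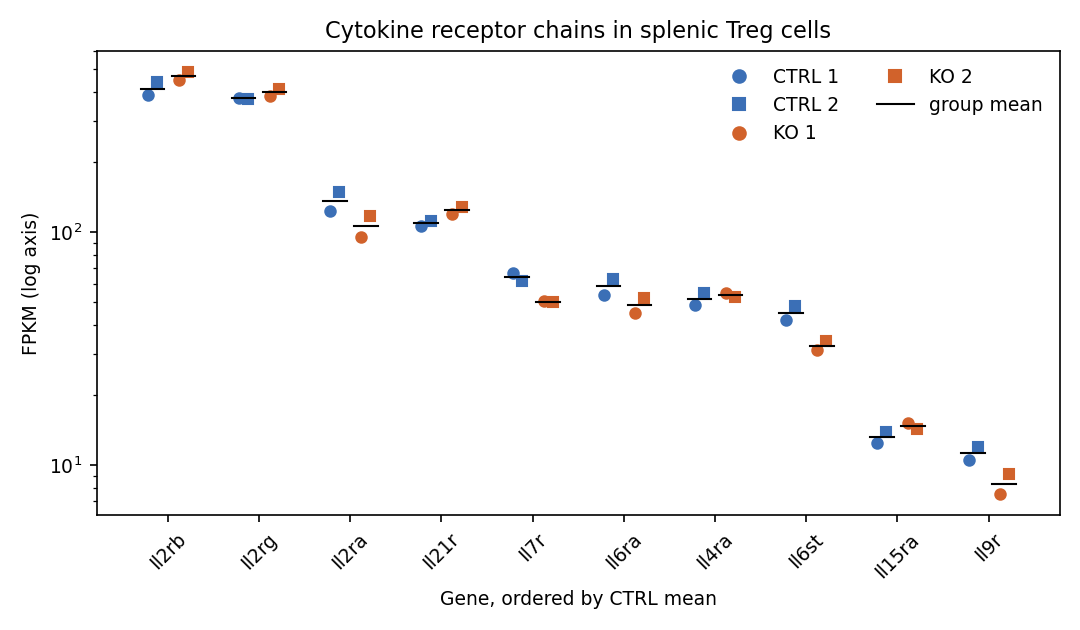
FPKM of each receptor chain on a log axis in the 2 CTRL libraries (blue) and the 2 KO libraries (orange), circles for library 1, squares for library 2 and bars for group means. Il2rb and Il2rg lie highest and Il15ra and Il9r lowest, and between the genotypes the positions move little.

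Because Il7r and Il6st were the chains that passed the threshold, the sequences before their RefSeq start sites are shown, on GRCm38.p6. The table of promoters held 9 of the 10 genes, with 10 windows of 250 bases before the start. The Il7r stretch covers the last 164 bases of its window, chr15:9529877-9530040 on the minus strand, since an Il7r exon in GENCODE vM21 (9530041 to 9530176) covers the rest. That exon begins a longer transcript, so the stretch lies before the RefSeq start but inside the gene as GENCODE annotates it, and the capitals mark a match to the STAT motif TTCNNNGAA.
Il7r: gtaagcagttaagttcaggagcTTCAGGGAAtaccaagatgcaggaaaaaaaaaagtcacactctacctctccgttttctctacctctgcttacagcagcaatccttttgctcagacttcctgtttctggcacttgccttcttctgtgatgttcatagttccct
The Il6st stretch is its whole window, chr13:112463820-112464069 on the plus strand.
Il6st: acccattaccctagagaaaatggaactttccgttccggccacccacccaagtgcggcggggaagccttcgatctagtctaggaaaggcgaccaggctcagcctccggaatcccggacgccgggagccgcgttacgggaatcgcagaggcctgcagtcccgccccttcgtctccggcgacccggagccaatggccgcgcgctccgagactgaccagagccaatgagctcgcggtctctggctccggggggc

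The sequences of the chains that passed the threshold differed in base composition. The Il7r window was 44% G+C with 1 CpG, and the Il6st window 66% G+C with 26 CpG, against medians of 52.4% and 6 over all 32851 windows of this length. The windows of the other chains ran from 42.4% G+C with 3 CpG (Il2ra) to 65.2% G+C with 18 CpG (Il6ra). Both strands were searched for TTCNNNGAA (STAT), GTAAACA (FOXO), TGTGGT (RUNX) and CCGGAAG (ETS), which stood in 7.02%, 3.17%, 14% and 6.91% of all windows. The STAT match in Il7r lay 142 to 134 bases before the RefSeq start and was the only one among the windows of the 9 genes. Il21r held a FOXO match at 38 to 32 bases that overlapped a RUNX match at 33 to 28 bases. Il2rg held a RUNX match at 227 to 222 bases and an ETS match at 17 to 11 bases, Il15ra an ETS match at 104 to 98 bases, and Il9r a RUNX match at 83 to 78 bases. None of these letter strings stood in the windows of Il2ra, Il4ra, Il6ra and Il6st.

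The β and common gamma chains of the IL-2 receptor were the most abundant of the family in every library. Il2rb (chromosome 15, 78479256 to 78495271, GENCODE vM21 on GRCm38) encodes the β chain, which IL-15 also uses. It measured 386 and 439 FPKM in the CTRL libraries against 449 and 488 in the KO libraries, from at least 34151 reads in each library. Both KO libraries lay above both CTRL libraries, with means of 468 ± 27.5 and 413 ± 37.5 FPKM (SD, n = 2). The difference did not pass the threshold (log2 fold change 0.18, SE 0.0865, adjusted p 0.203). Il2rg (X chromosome, 101264378 to 101268255) measured 378 and 372 FPKM in the CTRL libraries against 384 and 412.5 in the KO libraries. It was nearly level between the genotypes (log2 fold change 0.09, SE 0.0606, 95% interval -0.07 to 0.24, adjusted p 0.365). Il2rg shares exon sequence with Gm20489 on the same strand, whose reads were not analysed here, and the use of strand in the counting was not given in the sources used here.

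Il2ra (chromosome 2, 11642807 to 11693193), whose protein marks Treg cells on sorting, measured 123 and 148 FPKM in the CTRL libraries against 95.4 and 117 in the KO libraries. The nearest libraries of the 2 genotypes, CTRL 1 and KO 2, were 6.04 FPKM apart, less than the libraries of either genotype were from each other. The means were 136 ± 17.7 FPKM in CTRL and 106 ± 15.5 FPKM in KO (SD, n = 2), and the difference of -21.7% did not pass the threshold (log2 fold change -0.35, SE 0.134, 95% interval -0.70 to -0.01, adjusted p 0.138). This was the same percentage as for Il7r, with a larger error. Leaving out 1 library moved the log2 fold change of Il2ra to between -0.499 (without KO 2) and -0.204 (without KO 1). Within each genotype the number 2 library was the higher for Il2ra, and the same held for 6 of the 10 chains. Summed markers of myeloid, B and erythroid cells ran the other way, and their part in these values was not tested.

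Il7r (chromosome 15, 9505788 to 9530176) had the smallest p of the 10 chains. IL-7 supports the survival of resting T cells, and Treg cells carry its receptor at low levels compared with conventional T cells. Il7r measured 67.1 and 61.6 FPKM in the CTRL libraries against 50.7 and 50.0 in the KO libraries, from at least 5690 to 7061 reads. The 10.9 FPKM between the nearest libraries exceeded the spread within either genotype. The mean fell from 64.3 ± 3.85 to 50.4 ± 0.514 FPKM (SD, n = 2), with a log2 fold change of -0.35 (SE 0.0637, 95% interval -0.51 to -0.18, adjusted p 0.0421). The call rested on all 4 libraries: without any 1 of them, the log2 fold change lay between -0.41 and -0.29 and the adjusted p between 0.133 and 0.151, in fits that called at most 1 gene in all. The call was also lost with no variance trend (adjusted p 0.0632) and with no filter on low values (adjusted p 0.0898). Without CTRL 1, which stood apart in its low values, the log2 fold change was -0.286. With 3 libraries the lone sample of a genotype is assumed to vary like the pair of the other. The genes whose 4 values ran most like those of Il7r were Cd2ap, Trim32 and Snord96a, at Euclidean distances of 0.0204, 0.0217 and 0.0236 between their deviations on the log2 scale, and this is a description over 4 libraries.

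Il6st (chromosome 13, 112464070 to 112510086) showed the lowest fold change of the family. It measured 42.0 and 48.0 FPKM in the CTRL libraries against 31.2 and 34.0 in the KO libraries, from at least 6005 to 9062 reads. The nearest libraries were 7.99 FPKM apart, with both KO libraries below both CTRL libraries. The mean fell from 45 ± 4.24 to 32.6 ± 1.99 FPKM (SD, n = 2), with a log2 fold change of -0.45 (SE 0.0879, 95% interval -0.68 to -0.23, adjusted p 0.0441), lower than in all but 5.18% of the genes tested. Without any 1 library the log2 fold change lay between -0.55 and -0.36 and the adjusted p between 0.115 and 0.153, and without CTRL 1 the log2 fold change was -0.545. The call was also lost after median-ratio scaling (adjusted p 0.0538), with no variance trend (adjusted p 0.0632) and with no filter on low values (adjusted p 0.101).

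Its partner Il6ra (chromosome 3, 89864059 to 89913196) encodes the chain that binds IL-6 before gp130 joins. Il6ra measured 54.0 and 63.1 FPKM in the CTRL libraries against 44.9 and 52.2 in the KO libraries. Only 1.82 FPKM separated CTRL 1 from KO 2, and the difference of the means, 58.6 ± 6.47 against 48.5 ± 5.15 FPKM (SD, n = 2), did not pass the threshold (log2 fold change -0.27, SE 0.109, adjusted p 0.16). An antisense gene, Gm42809, overlaps exons of Il6ra, and reads from it were not analysed here.

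The other chains of receptors that hold the common gamma chain did not pass the threshold in either direction. Il9r (chromosome 11, 32187541 to 32200279), which binds IL-9, was the least abundant chain, at 10.6 and 12.0 FPKM in CTRL and 7.51 and 9.14 FPKM in KO. Its difference of -26.3% was close to that of Il6st in size, on at least 818 to 1285 reads (log2 fold change -0.40, SE 0.117, 95% interval -0.70 to -0.10, adjusted p 0.0849). Il21r (chromosome 7, 125603429 to 125633570), which binds IL-21, measured 106 and 112 FPKM in the CTRL libraries against 120 and 128 in the KO libraries. Il21r was the chain with the smallest p among those with higher means in KO, by 13.8% (log2 fold change 0.19, SE 0.0618, 95% interval 0.03 to 0.34, adjusted p 0.108).

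Il15ra (chromosome 2, 11705290 to 11734317) encodes the α chain that presents IL-15. It measured 12.45 and 13.95 FPKM in the CTRL libraries against 15.15 and 14.36 in the KO libraries, with 0.405 FPKM between the nearest libraries (log2 fold change 0.15, SE 0.0818, adjusted p 0.252). Il4ra (chromosome 7, 125552120 to 125579474), which binds IL-4, measured 48.7 and 55.0 FPKM in the CTRL libraries against 54.65 and 52.59 in the KO libraries. Il4ra was the only chain whose genotypes overlapped (log2 fold change 0.05, SE 0.0762, 95% interval -0.15 to 0.24, adjusted p 0.685). Il4ra also shares exon sequence with an antisense gene, Gm44876, that was not analysed here.

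**Figure D2:**
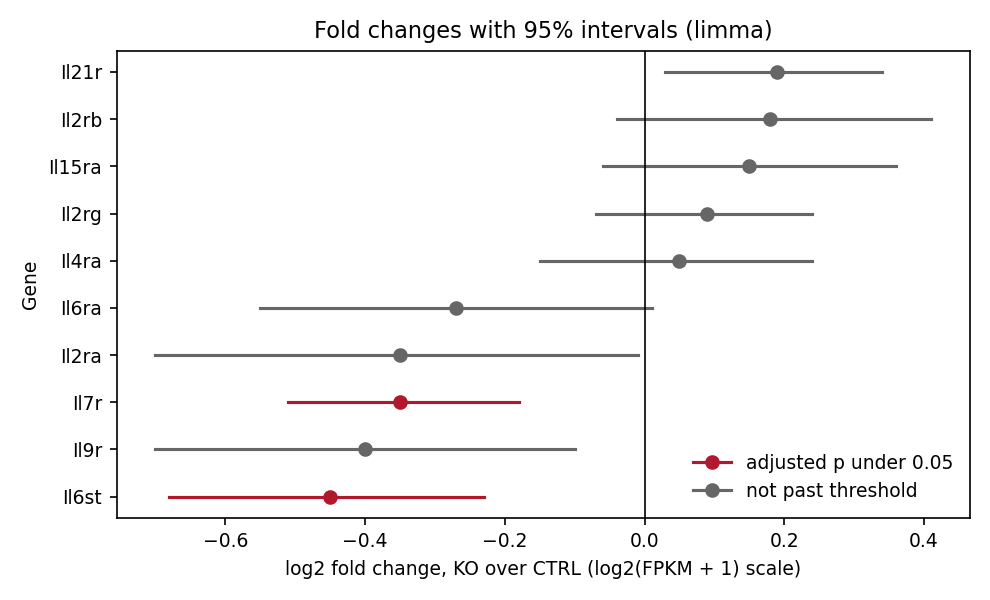
Fold change of each receptor chain, KO over CTRL, on the log2(FPKM + 1) scale, as points with 95% intervals from limma, with red for adjusted p under 0.05. Il6st at -0.45 and Il7r at -0.35 are past the threshold, and the intervals of Il9r, Il2ra and Il21r also leave out 0 before adjustment.

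In 9 of the 10 chains (90%) both KO libraries lay on one side of both CTRL libraries, 5 lower and 4 higher, and the same was true of 64.5% of all genes tested. The fold changes were 5 below and 5 above 0, with a median of -0.108 on the log2 scale, compared with -0.022 over all genes tested. The chains that were lower on average were Il2ra, Il7r, Il9r, Il6ra and Il6st. When 1 library was left out, the log2 fold change ran from 0.091 to 0.276 for Il2rb, from -0.377 to -0.155 for Il6ra and from 0.075 to 0.228 for Il15ra, in 1 direction for each. The median size of the fold change, in either direction, was 0.226 for the 10 chains and 0.165 for all genes.

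The order of the levels, which FPKM allows since it is scaled by length, was similar in both genotypes. In CTRL it ran Il2rb, Il2rg, Il2ra, Il21r, Il7r, Il6ra, Il4ra, Il6st, Il15ra and Il9r. The libraries of Il7r overlapped those of Il6ra, and those of Il6ra overlapped those of Il4ra, so that these neighbours did not differ beyond their spread. In KO, Il21r stood before Il2ra and Il4ra before Il7r, and the libraries of Il7r and Il6ra overlapped. All 10 chains together summed to 1228 and 1325 FPKM in CTRL and 1253 and 1357 FPKM in KO. Il2ra made up 10% and 11.2% of this sum in CTRL and 7.62% and 8.64% in KO. Il2rb made up 31.4% and 33.1% in CTRL and 35.8% and 35.9% in KO.

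Ratios within a library do not depend on how the libraries are scaled. High CD25 with low CD127, the proteins of Il2ra and Il7r, is a common way of sorting Treg cells, and the ratio of these genes was compared first. It was 1.84 and 2.41 in CTRL and 1.88 and 2.35 in KO, so that the genotypes overlapped closely (exact permutation test, two-sided, p = 1). With 2 libraries against 2 this test cannot go below 0.333, so it has no power to call a difference. The ratio of Il2ra to Il2rb, chosen after its values were seen, was 0.32 and 0.338 in CTRL and 0.213 and 0.241 in KO. The KO values were all lower, by 0.54 on the log2 scale (exact permutation p = 0.333, the smallest possible).

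The ratio of Il2ra to Il2rg behaved in the same direction, from 0.326 and 0.399 in CTRL to 0.248 and 0.284 in KO. The ratio of Il2ra to Il21r crossed 1, from 1.16 and 1.32 in CTRL to 0.794 and 0.918 in KO. Il2ra relative to Il15ra, the α chains of the receptors for IL-2 and IL-15, was at 9.91 and 10.6 in CTRL and 6.30 and 8.17 in KO. These genes lie side by side on chromosome 2, 12096 bases apart, and their means moved in opposite directions. Il4ra and Il21r are also neighbours, 23954 bases apart on chromosome 7, with ratios of Il21r to Il4ra of 2.17 and 2.04 in CTRL and 2.2 and 2.43 in KO. The ratio of Il2rb to Il2rg was 1.02 and 1.18 in CTRL and 1.17 and 1.18 in KO, without separation of the genotypes. Il6ra exceeded Il6st 1.29 and 1.32 times in CTRL and 1.44 and 1.53 times in KO. In all, 8 ratios were computed, and none could have passed a threshold of 0.05 in this design.

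**Figure D3:**
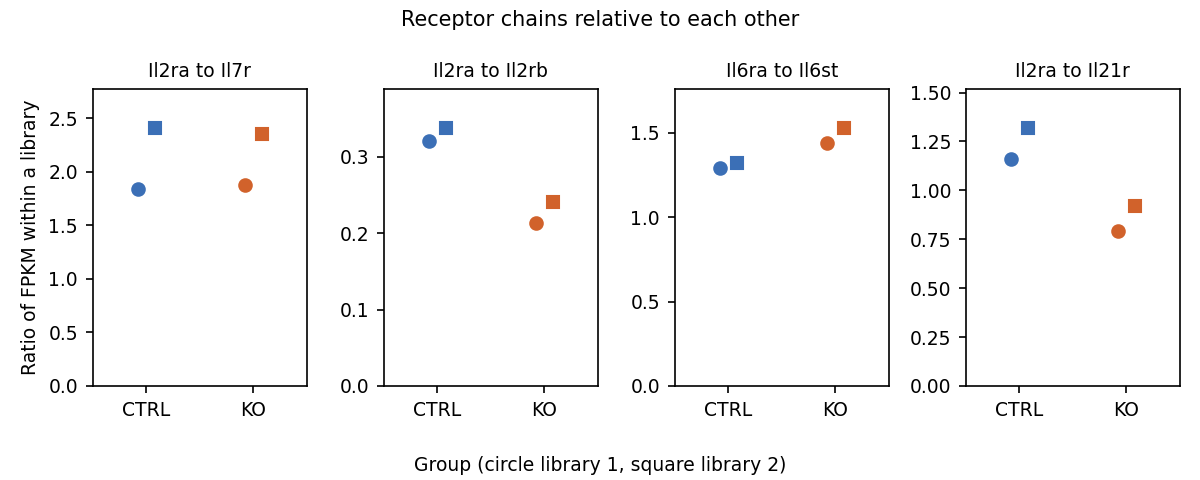
Ratio of the FPKM of 2 receptor chains within each library, on axes that start at 0, with circles for library 1 and squares for library 2 of CTRL (blue) and KO (orange). The ratio of Il2ra to Il7r overlaps between the genotypes, while Il2ra to Il2rb and Il2ra to Il21r are lower in both KO libraries and Il6ra to Il6st is higher in both.

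The genes around the receptors were taken from 8 lists of 103 genes in all, of which 80 were tested. In these lists 7 genes rose and 2 fell, a share of 11.2% called against 9.75% for all genes tested. None of them passed with no filter on low values, where 0 of 19888 genes were called. Among 7 ligands tested of 16, 2 rose and none fell, with a median log2 fold change of 0.24. Ebi3, a subunit of IL-27 and IL-35, rose from 19.0 and 21.1 to 32.0 and 31.9 FPKM (log2 fold change 0.65, adjusted p 0.0329), and it shares exon sequence with an antisense gene. Lif, which signals through gp130, rose from 2.85 and 3.39 to 5.10 and 6.00 FPKM (log2 fold change 0.67, adjusted p 0.0414). Clcf1, a ligand of the gp130 family that was the most abundant of those tested, measured 49.8 and 47.0 FPKM in CTRL against 38.6 and 32.9 in KO and just missed the threshold (log2 fold change -0.43, SE 0.091, adjusted p 0.0509). Clcf1 shares exon sequence with another protein-coding gene on the same strand, so that reads could be split between them. It is named after its values were seen, since 1 ligand was called lower under other settings. These included limma-voom, a filter on mean FPKM above 5 and each of the 3 other scalings. Il2, Il7 and Il9 did not pass the filter on low values, Il2 at most at 0.358 FPKM and Il9 listed at 0 in all 4 libraries.

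Of 22 cytokine receptor chains outside this family, 9 were tested, and 2 rose and none fell (median 0.07). Il3ra, the α chain for IL-3, measured 24.1 and 21.75 FPKM in the CTRL libraries against 39.8 and 40.8 in the KO libraries (log2 fold change 0.79, adjusted p 0.0299), and an antisense gene overlaps it. Il12rb1, a chain of the IL-12 and IL-23 receptors, measured 22.9 and 21.9 FPKM in the CTRL libraries against 34.1 and 35.2 in the KO libraries (log2 fold change 0.61, adjusted p 0.0306). Neither pair of values overlapped.

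Downstream of the receptors, none of the 11 JAK kinases and STAT factors passed the threshold (limma, median 0.05). At an unadjusted p under 0.05, 2 were higher and 1 was lower, and limma-voom called 0 higher and 1 lower. Of all genes tested, 34.7% had such a p, the share to set beside each count before adjustment here and below. Named after their values were seen, the 2 higher were Tyk2 and Stat5a (log2 fold changes 0.18 and 0.24, adjusted p 0.11 and 0.0952). The lower gene was Stat5b (log2 fold change -0.24, adjusted p 0.067). Jak1, a kinase that binds gp130 and the chains that signal with the common gamma chain, had a log2 fold change of -0.12 (adjusted p 0.162). Jak1, Tyk2, Stat5a, Lck and Cish share exon sequence with other annotated genes, so that reads could be split between them. Of 10 adaptors and genes of the PI3K arm tested, none passed (median 0.03), with 4 higher and 0 lower before adjustment and none by limma-voom. Lck, a kinase of T cell activation that also contacts the IL-2 receptor, and Pik3cd, the PI3K catalytic subunit of lymphocytes, had log2 fold changes of 0.07 and -0.05. Of 16 feedback inhibitors 1 rose and none fell (median -0.03), with 1 higher and 2 lower before adjustment and the same counts by limma-voom. The 2 lower before adjustment, named after their values were seen, were Socs4 (log2 fold change -0.58, adjusted p 0.0553) and Pias2 (log2 fold change -0.35, adjusted p 0.0515). The gene that rose was Socs3, an inhibitor that binds gp130, which rose from 57.9 and 55.7 to 108 and 88.4 FPKM (log2 fold change 0.78, SE 0.106, adjusted p 0.0351). Cish, a STAT5-induced inhibitor and the most abundant of this list, measured 137 and 163 FPKM in the CTRL libraries against 184 and 166 in the KO libraries (log2 fold change 0.22, adjusted p 0.195).

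Among 15 target genes of STAT5, 1 rose and 2 fell (median -0.03). Before adjustment 3 were higher and 2 lower, and limma-voom called 2 higher and 2 lower. The gene that rose past the threshold was Socs3 again, since the lists overlap. Cdkn1a and Pim1, named after their values were seen, were also higher before adjustment. Cdkn1a measured 5.66 and 5.26 FPKM in CTRL against 17.5 and 10.1 in KO and just missed the threshold (adjusted p 0.0509). Pim1 had a log2 fold change of 0.45 (adjusted p 0.089). Bcl2, which protects from apoptosis, fell from 36.2 and 35.3 to 19.4 and 21.9 FPKM (log2 fold change -0.77, SE 0.0764, adjusted p 0.0306). Myc, a driver of cell growth, fell from 65.4 and 64.9 to 41.3 and 47.6 FPKM (log2 fold change -0.54, SE 0.0816, adjusted p 0.0355). Bcl2 overlaps an antisense gene, and the fall of Bcl2 was the largest decrease named here.

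Of 14 transcription factors known to act on receptor genes, 2 rose and none fell (median 0.11). The number that rose was 1 with quantile normalization and 0 with no variance trend or with no filter on low values. Runx3 measured 22.0 and 24.4 FPKM in the CTRL libraries against 30.1 and 32.7 in the KO libraries (log2 fold change 0.42, adjusted p 0.043). Nfatc1, a factor activated by calcium signalling, measured 57.5 and 57.9 FPKM in the CTRL libraries against 71.0 and 69.55 in the KO libraries (log2 fold change 0.28, adjusted p 0.042). Of 4 genes for shedding and ubiquitin ligation of receptors none passed (median 0.00), with 0 higher and 1 lower before adjustment and none by limma-voom. The most abundant were Adam10, a sheddase, and Cbl, a ubiquitin ligase, with log2 fold changes of -0.09 and -0.28.

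**Figure D4:**
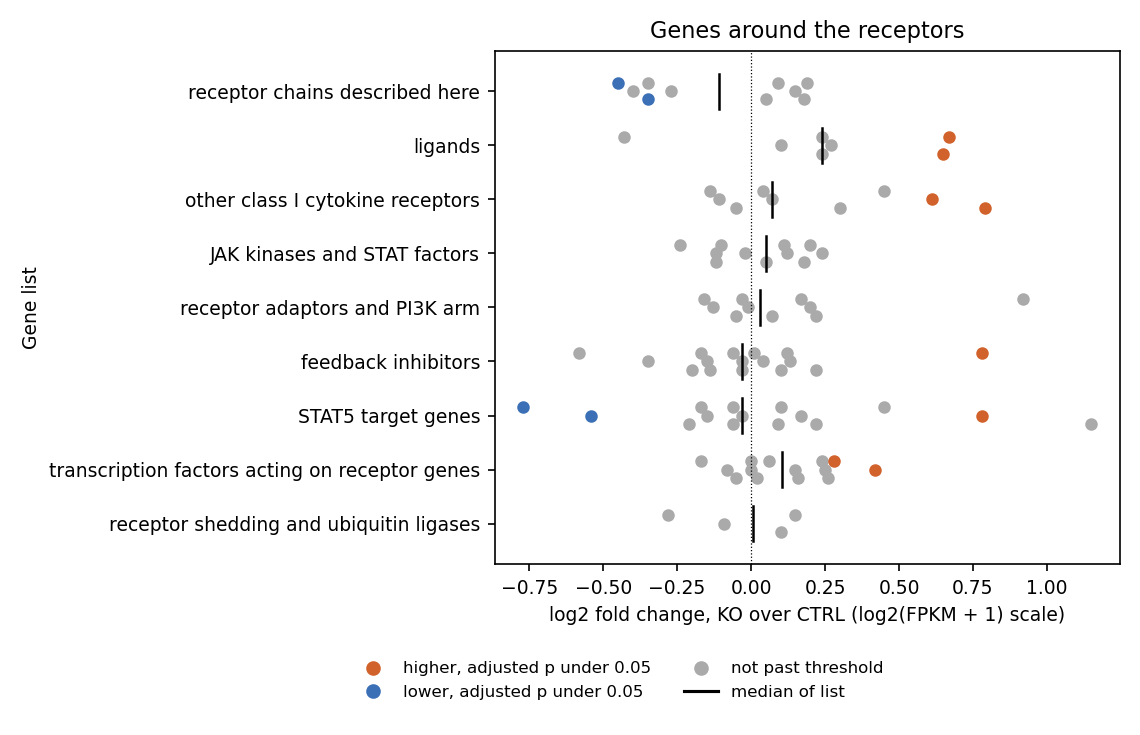
Fold change of every gene tested in the receptor family and in each of 8 lists, KO over CTRL on the log2(FPKM + 1) scale, with orange for higher and blue for lower at adjusted p under 0.05, grey for the rest and a bar for the median. The receptor family holds 2 lower genes and the lists hold 7 higher and 2 lower genes, with a few genes in more than 1 list.

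Other markers moved with the genotype. Summed FPKM of 9 effector Treg genes was 398 and 370 in CTRL and 505 and 535 in KO, and 4 of the 9 rose (Icos, Batf, Gzmb and Mki67) and none fell, against 5.1% of all genes called higher. Before adjustment 2 of the 9 were lower, Cd44 (log2 fold change -0.18, adjusted p 0.126) and Itgae (log2 fold change -0.22, adjusted p 0.0793). Summed FPKM of 6 genes of resting T cells was 1261 and 1355 in CTRL and 1175 and 1133 in KO. Il7r is itself higher in resting than in activated T cells as a rule, and the part of a different mix of resting and effector cells in the fall of Il7r and Il6st was not tested. B cell markers summed to 21.57 and 18.25 FPKM in CTRL 1 and 2 and to 31.3 and 18.27 FPKM in KO 1 and 2. Erythroid markers summed to 12.24 and 2.215 FPKM in CTRL 1 and 2 and to 19.86 and 5.016 FPKM in KO 1 and 2. Hbb-bs was listed at 0 in 3 of the 4 libraries. Over the 4 libraries CD8 T cell markers summed to 8.49 to 11.4 FPKM, nearly all of it Cd8b1, and NK cell markers to 2.14 to 2.56 FPKM.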

How the data were processed

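Per the submitters' processing notes, reads of 150 bp pairs were checked with FastQC, mapped to mm10 with HISAT2 (2.2.1) and counted with featureCounts (2.0.1), and edgeR (3.34.0) served the authors' own comparison. The deposited values were FPKM, scaled by the authors to gene length and library total, for 24087 rows and 4 libraries; control columns named WT with a number were read as the CTRL libraries of that number. The gene lengths and the use of strand were not given in the sources used here.

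Because FPKM are not counts, KO was compared with CTRL by limma (3.58.1, R 4.3.3; lmFit, eBayes with an intensity trend) on log2(FPKM + 1), which understates changes of low genes, over the 11399 genes that reached 1 FPKM in 2 or more libraries. Two-sided p-values were corrected for all of these genes together (Benjamini-Hochberg), with a threshold of 0.05. Whole reads were recovered from the steps between FPKM values (19887 of 19888 rows above 0, 99.995%, within 0.01 reads); they are lower bounds and served limma-voom, which called 1895 genes. The labels call each library a pool of its own mice. The p-values rest on the spread between the 2 libraries of each group. eBayes drew that spread toward the trend over all genes tested, and the median standard error was 0.0866. Replicate numbers were shared between genotypes but name no shared batch.

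All 10 members were named. From each list the genes past the threshold were named, at most 4, and the most abundant where fewer than 2 passed; Il7r, with the smallest p, was compared with all tested genes for likeness. Some genes that this rule names are not reported here but stay in the counts and sums. The members and lists were chosen with earlier results of these data known. Alternatives were another pseudocount, other filters, other scalings, other variance models, the replicate number as a block, and leaving out each library. The fit was tested on simulated data, in which more of the calls fell in unchanged genes than the threshold is set for. Ratios and summaries were computed in Python 3.11.15 with pandas 2.3.3, numpy 2.4.6 and scipy 1.17.1.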

Additional observations from a re-analysis of the deposited data

How the results depend on the processing

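The number of receptor chains called lower in KO was 2 (Il7r and Il6st) with a pseudocount of 0.1, a filter on mean FPKM above 5, equal-sum scaling, quantile normalization, robust variance estimates and limma-voom. In that order, these settings called 9.42%, 14.8%, 10.7%, 8.8%, 13.1% and 16.6% of all genes tested. The number of chains was 1 (Il7r) after median-ratio scaling, which called 9.94% of all genes. It was 0 with no filter on low values and 0 with no variance trend, which called 5.96% of all genes. No filter left 0 genes called of 19888. With the replicate number as a block (replicate block), it was 5 (also Il2ra, Il9r and Il6ra, adjusted p 0.0205, 0.0352 and 0.0447), while 15.6% of all genes were called. The numbers pair the libraries in name only: with 2 pairs, deviations of same-numbered libraries correlated at a Pearson r of 0.342 and a Spearman rho of 0.0553 across genes, which are not replicates. Leaving out 1 library, the number was 0 each time. No chain was called higher under any of these settings. Il2rg turned to -0.032 on the log2 scale with quantile normalization, and Il4ra ranged from -0.036 to 0.135 when 1 library was left out. The log2 ratio of Il2ra to Il7r, -0.002, ranged from -0.197 to 0.192. Of the counts per gene list, 131 stayed within 1.5 times and 29 did not, leave-outs aside. Many of the 131 were 0 both in the main fit and under the alternative, so that number is no measure of stability. The causes of the moves were not tested. At least 158 reads stood behind each value of a chain. This lower bound was least for Il15ra. Il9r had at least 818 reads at lower FPKM, so the bounds do not rank the chains by reads.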
